A study of Mus musculus with 15 samples.

Results

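The Polycomb and H3K27 demethylase genes studied here were 10 named genes, Bmi1, Ezh1, Ezh2, Eed, Suz12, Rnf2, Cbx7, Cbx8, Kdm6a and Kdm6b, of 21887 protein-coding genes in the annotation. They were chosen by name. Every ATAC-seq peak in each gene body and the 50 kb on either side (mm10) was taken, which gave 24 of 19189 peaks in the KO list, 43 of 28391 in the KI list and 27 of 17316 in the WT list. ATAC-seq marks DNA open to a transposase. The series holds 15 samples of haematopoietic stem cells (HSC) sorted from adult mice. The 12 RNA-seq samples were not analysed here. The ATAC-seq samples were 3, a single library for each genotype, made from 50000 cells each. KO mice were Mx1-Cre+/-;mTORflox/flox, KI mice were Mx1-Cre+/-;mTORflox/knockin, and WT control mice were Mx1-Cre-/-;mTORflox/flox. All mice had received poly(I:C), which induces the interferon-responsive Mx1 promoter that drives Cre. Cre is therefore not restricted to HSC, both mutants carried it and WT did not, and the labels describe neither the knock-in change nor the number of mice behind a library. The KO and WT libraries are labelled as re-analysed and the KI library is not, so the KI genotype and any difference of batch cannot be told apart.

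The Polycomb proteins keep genes silent through 2 complexes. PRC2, built on EZH1 or EZH2 with EED and SUZ12, methylates lysine 27 of histone H3. PRC1, in which RNF2 is the ubiquitin ligase and BMI1 its partner, modifies histone H2A, and its CBX subunits bind the methylated lysine. KDM6A and KDM6B remove that methylation. In mouse blood, BMI1 is needed for HSC self-renewal, and CBX7 and CBX8 are alternative chromodomain subunits of PRC1.

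With 1 library per genotype there was no replicate error, and neither a test nor a p-value sets 1 genotype against another. Each difference below is one between 2 peak lists. The score is the value the authors deposited for each peak, with a lowest value of 50, and read depth is unknown. A percentile is the share of peaks of the same list that score no higher. Lists of different length make scores and percentiles no measure of change between libraries; both only place a peak within its own list. As a check of the labels, the KO list had no peak over the start of Mtor, while KI had a peak of score 210.27 and WT a peak of score 341.21 there. The labels do not name the deleted exons, so whether the deletion takes in this start is unknown. Of 12 HSC marker genes, 5 in KO, 8 in KI and 9 in WT had a peak within 1 kb of an annotated gene end, called a gene-end peak. Over all 21887 genes, 9663 in KO, 11255 in KI and 9677 in WT had a gene-end peak. With so few genes per group, the marker counts below are a description. Gata2, Tek and Slamf1 had none in any list, and Procr had one in WT alone. Of 4 erythroid markers, 2 in KO, 3 in KI and 0 in WT had a gene-end peak. Of 4 granulocyte and monocyte markers, 0 in KO, 2 in KI and 0 in WT had one, and of 4 B cell markers 0 in KO, 2 in KI and 1 in WT had one. Of 4 T cell markers none did in any list. Of 4 genes of cells outside the blood, Col1a1 had one in KO and KI. The part of these other cells in the results below was not tested.

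Peaks at the starts of the 10 genes fell into 4 patterns. Ezh2, Eed, Suz12, Rnf2, Cbx8 and Kdm6a had a peak over the start in KO, KI and WT. Bmi1 had a start peak in KI and WT and none in KO. Ezh1 had a start peak in both mutants and not in WT, and Cbx7 had one in KO and none in KI or WT. Kdm6b had no start in the table of promoters used here, and its peaks nearest to an annotated end were present in all 3 lists. The start is the one given in the RefSeq promoter table, available for 9 of the 10 genes and 17492 of all genes. Among all genes with such a start, 41.9% had a peak within 1 kb of it in all 3 lists, 3.57% in KI and WT alone, 3.5% in KO and KI alone and 0.949% in KO alone.

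**Figure D1:**
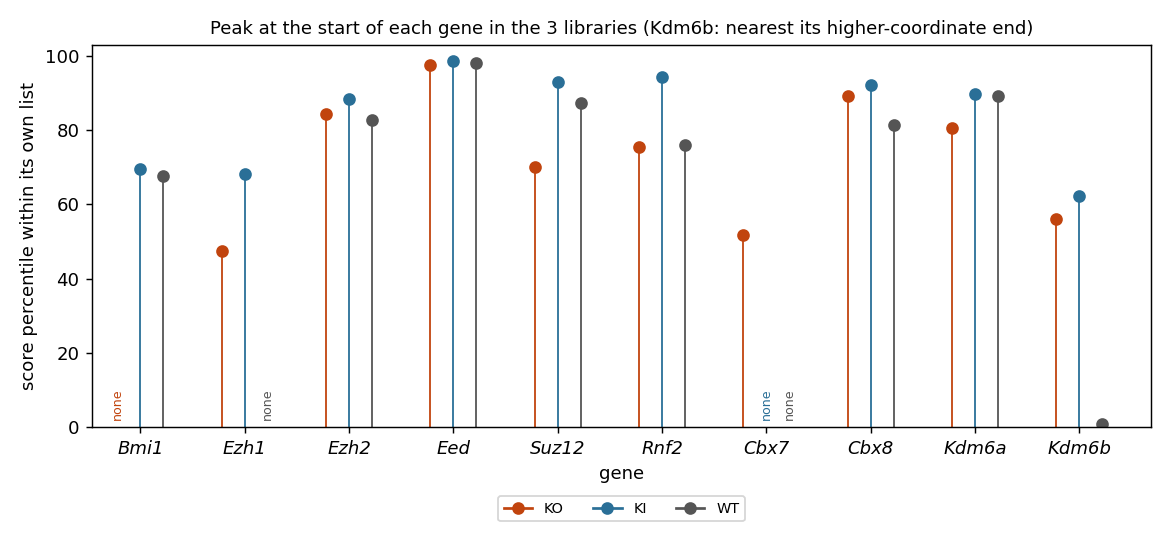
Score percentile, within its own list, of the peak at the start of each gene, with KO left, KI in the middle and WT right. For Kdm6b the peak nearest to its higher-coordinate end is shown, and the word none marks a list without a peak. Bmi1 lacks a KO peak, Ezh1 a WT peak and Cbx7 a KI and a WT peak, and the Kdm6b peak of WT stands at percentile 0.918.

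Sequences are given for the 3 starts whose peaks differed between lists, with 2 starts that had a peak in all 3 lists beside them. Each line gives the 250 bases before the start from RefSeq, build GRCm38.p6 (the assembly behind mm10), 5′ to 3′ on the strand of the gene. Capitals mark matches, on either strand, to any of 11 short words of transcription factors, listed after the sequences. Bmi1 lies at chr2:18676768-18677017 on the plus strand, Ezh1 at chr11:101226464-101226713 on the minus strand, Cbx7 at chr15:79932647-79932896 on the minus strand, Kdm6a at chrX:18162325-18162574 on the plus strand and Ezh2 at chr6:47595031-47595280 on the minus strand.
Bmi1: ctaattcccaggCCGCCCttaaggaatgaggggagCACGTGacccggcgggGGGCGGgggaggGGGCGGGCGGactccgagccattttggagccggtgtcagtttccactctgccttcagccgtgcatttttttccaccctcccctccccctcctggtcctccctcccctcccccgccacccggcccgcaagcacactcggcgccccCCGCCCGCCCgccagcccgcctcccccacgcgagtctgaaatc
Ezh1: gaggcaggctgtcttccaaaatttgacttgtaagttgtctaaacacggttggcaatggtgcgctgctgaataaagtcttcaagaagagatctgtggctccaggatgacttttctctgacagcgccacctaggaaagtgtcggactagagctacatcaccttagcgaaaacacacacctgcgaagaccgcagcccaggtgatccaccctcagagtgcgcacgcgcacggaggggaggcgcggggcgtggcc
Cbx7: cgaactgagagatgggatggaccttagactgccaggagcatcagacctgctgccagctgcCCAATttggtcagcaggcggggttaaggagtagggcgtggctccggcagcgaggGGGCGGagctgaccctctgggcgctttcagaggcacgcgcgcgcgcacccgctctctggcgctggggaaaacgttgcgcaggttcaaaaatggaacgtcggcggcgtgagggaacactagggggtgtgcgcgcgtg
Kdm6a: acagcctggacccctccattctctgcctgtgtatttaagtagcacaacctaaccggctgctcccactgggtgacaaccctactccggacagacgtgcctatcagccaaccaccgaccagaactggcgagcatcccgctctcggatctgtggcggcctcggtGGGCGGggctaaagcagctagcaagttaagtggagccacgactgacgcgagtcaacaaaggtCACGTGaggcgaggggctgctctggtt
Ezh2: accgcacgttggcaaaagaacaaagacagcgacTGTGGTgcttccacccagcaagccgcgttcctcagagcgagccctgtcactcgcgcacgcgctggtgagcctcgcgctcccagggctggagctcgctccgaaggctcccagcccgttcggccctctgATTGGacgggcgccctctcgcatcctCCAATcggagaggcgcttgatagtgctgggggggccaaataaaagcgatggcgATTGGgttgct

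The KO list covered 0 of the 250 Bmi1 bases, and the KI and WT peaks covered all 250. For Ezh1 the KO peak covered 86 bases and the KI peak 157, and WT covered 0. The KO peak covered all 250 bases of Cbx7, where KI and WT covered 0. All 250 bases of Kdm6a and of Ezh2 lay under a peak in each list. The guanine and cytosine content was 70.4% for Bmi1, 55.2% for Ezh1, 64.8% for Cbx7, 59.6% for Kdm6a and 63.6% for Ezh2, against a median of 55.6% over 21263 promoters of protein-coding genes. CpG pairs numbered 21 in Bmi1, 14 in Ezh1, 23 in Cbx7, 15 in Kdm6a and 23 in Ezh2, against a median of 10. The 3 starts that differed between lists thus included the highest and the lowest content of the 5.

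Both strands were searched for the following words. GGGCGG stands for SP and KLF factors, CCGGAA is the core word of ETS factors, GCGCATGC is that of NRF1, and TGACGTCA is that of CREB. CACGTG is the E-box, TGTGGT is the core word of RUNX factors, AGATAA is the word of the GATA family, and CCAAT is bound by NFY. AAGATGGC is the word of YY1, and E2F factors had both TTTCGCGC and TTTGGCGC. GGGCGG was held by 6 of the 9 members' sequences, Bmi1, Suz12, Rnf2, Cbx7, Cbx8 and Kdm6a, and by 42.6% of all promoters. Bmi1 held 6 matches to it, with 2 pairs of neighbouring matches overlapping. CACGTG was held by Bmi1, Cbx8 and Kdm6a and by 6.63% of all promoters. CCAAT was held by Ezh2, Suz12, Cbx7 and Cbx8 and by 35.4% of all, with 3 matches in Ezh2. TGTGGT was held by Ezh2 and by 12.4% of all, and TGACGTCA by Cbx8 and by 1.92%. No other pair of matches overlapped in these sequences. The Ezh1 and Eed sequences held none of the words, while Ezh1 lacked a WT peak and Eed had the highest-scoring start peak of the 10 genes in every list. The words of ETS, NRF1, GATA, YY1 and E2F factors had no match in these 9 windows. A match is a run of letters and not evidence that a factor binds.

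**Figure D2:**
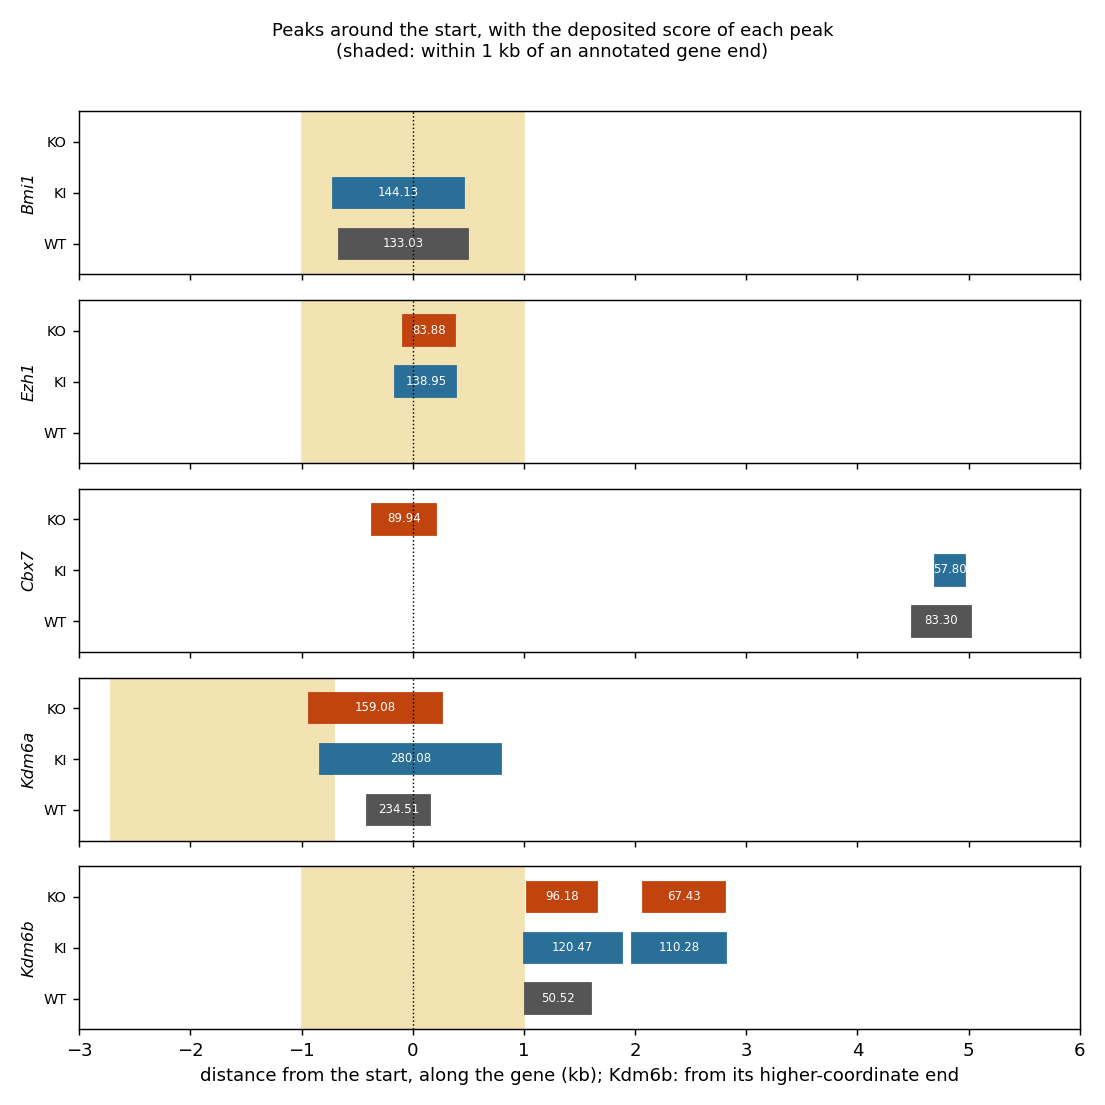
Peaks around the start of Bmi1, Ezh1, Cbx7, Kdm6a and Kdm6b in KO (top row of each panel), KI and WT (bottom row). The horizontal axis is the distance from the start along the gene in kb (for Kdm6b, inward from its higher-coordinate end), the number in each bar is the deposited score, and shading marks 1 kb either side of an annotated gene end. The Kdm6a peaks of all 3 lists overlap the start, and the WT peak alone stays outside the shading.

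Ezh1, the PRC2 methyltransferase that is also active in cells that do not divide, had a start peak in both mutants and none in WT. The KO peak (chromosome 11, 101226086 to 101226549) was 464 bp wide with a score of 83.88, percentile 47.4. The KI peak (101226072 to 101226620) was 549 bp wide with a score of 138.95, percentile 68.2. The nearest WT peak lay 52362 bp from the KO peak and 52291 bp from the KI peak, so the Ezh1 gain was not a WT peak shifted out of a window. Among peaks of the same score decile (a 10% class of a list ranked by score), 37.7% of KO peaks and 26.8% of KI peaks over the whole lists were absent from WT. Both comparisons use the same WT list. With peaks of score 100 or more alone, the KO peak dropped out and the KI peak stayed. Elsewhere in the Ezh1 window the lists shared no peak. KO had a weak peak at the ends of Vps25 and Wnk4 (55.13, percentile 9.73). KI had peaks of 64.46 and 64.7. WT had a single peak at the end of Plekhh3 (75.1, percentile 34.8), 19337 bp beyond the far end of Ezh1.

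Ezh2, the main PRC2 methyltransferase of dividing cells, had a strong start peak in each list. It scored 177.2 in KO (944 bp, percentile 84.3), 265.36 in KI (1364 bp, percentile 88.5) and 191.43 in WT (1100 bp, percentile 82.8). The KO peak overlapped the WT peak over 910 bp and the KI peak over 1100 bp. KO and WT had no other peak in the window. KI had a peak inside the gene (79.4, percentile 40.3) and a peak 41242 bp before the annotated start (73.24, percentile 34.7).

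Eed, the PRC2 subunit that binds the methylated lysine, had the start peak that ranked highest among the 10 genes in each list. It scored 333.68 in KO (1201 bp, rank 456), 508.2 in KI (1219 bp, rank 434) and 384.67 in WT (1435 bp, rank 337). All of them stood at or above percentile 97.6. The window also held a peak at the end of Hikeshi in all 3 lists, with 255.97 in KO, 258.16 in KI and 275.56 in WT. A weak peak farther before the start was present in KO (64.13), KI (67.79) and WT (75.31). A site before the start had a KI peak (101.09) at 17591 bp from the gene, WT peaks of 62.62 at 17558 bp and 52.98 at 17136 bp, and no KO peak within 16696 bp. The lower WT peak lay 172 bp from the KI peak without overlapping it. KI had 2 further peaks, of 77.5 inside the gene and 73.29 beyond its far end.

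Suz12, the PRC2 subunit that holds the complex together, was the gene whose window held the same 3 peaks in each list and no list-specific peak. The start peak scored 123.76 in KO (652 bp, percentile 70.2), 323.98 in KI (846 bp, percentile 92.9) and 219.67 in WT (1104 bp, percentile 87.3). The KO and KI peaks lay wholly inside the WT peak. The other peaks lay at the ends of Utp6 (82.83 in KO, 180.17 in KI, 136.37 in WT) and Crlf3 (246.93 in KO, 275.56 in KI, 206.7 in WT).

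Bmi1, the PRC1 subunit required for HSC self-renewal, had a start peak in KI and WT that the KO list lacked. The KI peak (chromosome 2, 18676303 to 18677476) was 1174 bp wide with a score of 144.13, percentile 69.6. The WT peak (18676357 to 18677513) was 1157 bp wide with a score of 133.03, percentile 67.7. The peaks overlapped over 1120 bp. The nearest KO peak lay 3614 bp from the KI peak and 3668 bp from the WT peak. In the same score decile, 6.92% of all WT peaks were absent from KO, and 23.4% of all KI peaks were. The start peak also lay within 1 kb of the annotated end of Commd3, the gene before Bmi1, so it cannot be assigned to Bmi1 alone. The peak at the start of Commd3 was present in KO (85.36, 911 bp), KI (118.92, 853 bp) and WT (109.84, 884 bp), with its near edge 4330 bp from Bmi1 in KO, 4288 bp in KI and 4223 bp in WT. Accessibility was thus called in KO at the neighbouring start and not at that of Bmi1. KO alone had a weak peak 21809 bp before the gene (76.03, percentile 40.0), and KI alone had peaks of 57.25 and 68.43 after its end.

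Rnf2, the ubiquitin ligase of PRC1, had a start peak in all lists, with 140.01 in KO (1045 bp, percentile 75.4), 351.13 in KI (1276 bp, percentile 94.3) and 158.33 in WT (913 bp, percentile 75.9). A peak shared by the ends of Swt1 and Trmt1l scored 292.67 in KO, 399.81 in KI and 323.38 in WT. KI had 2 further weak peaks, of 61.33 at the other end of Trmt1l and 59.52.

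Cbx7, a chromodomain subunit of PRC1, had peaks at different places in KO and in the other lists. The annotated gene spans 55340 bp on chromosome 15 (79915804 to 79971143), and the start in the promoter table lies inside this span. No list had a gene-end peak. KO had a peak over the promoter-table start (79932437 to 79933009, 573 bp, score 89.94, percentile 51.9), 4278 bp from the nearest WT peak and 4491 bp from the nearest KI peak. KI and WT had a peak in the gene body past that start which KO lacked, with 57.8 in KI (percentile 13.9) and 83.3 in WT (percentile 42.2). In the score decile of the KO start peak, 7.19% of all KO peaks were absent from KI and 25% from WT. The KO start peak dropped out at score 100 and stayed at equal list size. Beyond the gene, 2 peaks toward Apobec3 were present in all lists. The one at the end of Apobec3 scored 89.49 in KO, 100.72 in KI and 51.72 in WT. The other scored 98.3 in KO, 103.82 in KI and 58.59 in WT. A peak on the start side was present in KI (94.74) and WT (51.87) and not in KO, and KI alone had a peak of 57.13.

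Cbx8, another chromodomain subunit of PRC1, lies near Cbx2, which also encodes a CBX subunit. Its start peak was present in KO (208.32, 754 bp, percentile 89.1), KI (310.81, 1160 bp, percentile 92.1) and WT (183.79, 796 bp, percentile 81.4). Cbx2 had a gene-end peak in KI alone (95.15, 668 bp, percentile 51.2), which lay 16495 bp from the nearest KO peak and 16344 bp from the nearest WT peak. KI alone also had peaks of 69.33 and 94.6 in the Cbx8 window. A weak peak between Cbx8 and Enpp7 was present in KO (68.5), KI (61.38) and WT (54.01).

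Kdm6a, the X-linked demethylase also known as Utx, had a start peak in all 3 lists. The KO peak (chromosome X, 18161643 to 18162839) was 1197 bp wide with a score of 159.08, percentile 80.5. The KI peak (18161741 to 18163368) was 1628 bp wide with a score of 280.08, percentile 89.8. The WT peak (18162161 to 18162731) was 571 bp wide with a score of 234.51, percentile 89.3. The whole WT peak lay within the KO peak and within the KI peak. Against the annotated end of the gene the edges lay at 781 bp in KO, 879 bp in KI and 1299 bp in WT, so that a window of 1 kb around that end called a gain in both mutants. The promoter-table start lies 1713 bp inside the annotated end, and all 3 peaks covered it. KI alone had weak peaks of 71.92 and 81.69 inside the gene.

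Kdm6b, the demethylase also known as Jmjd3, had its 15 window peaks in 6 regions, 3 of them with a peak in every list. The peaks nearest to its higher-coordinate end (69420367 on chromosome 11) scored 96.18 in KO (633 bp, percentile 56.2), 120.47 in KI (883 bp, percentile 62.4) and 50.52 in WT (601 bp, percentile 0.918). The KO peak overlapped the WT peak over 584 bp, and the KI peak covered all 601 bp of it. Their distances from that end were 1023 bp in KO, 996 bp in KI and 1006 bp in WT. The gain called in KI within 1 kb therefore rested on a distance of 996 bp in KI against 1006 bp in WT. Farther inside the gene, a peak in KO (67.43, 743 bp) and in KI (110.28, 841 bp) overlapped no WT peak. The WT peak described above lay 461 bp from the KO one and 368 bp from the KI one. Another peak in the gene body was present in KO (78.62), KI (85.39) and WT (61.5), with a further KI peak of 66.78 that lay 13 bp from the WT peak. A peak shared by the ends of Cyb5d1, Naa38 and Tmem88 scored 78.85 in KO and 200.52 in KI, and the WT list had 2 peaks there, of 109.91 and 60.44. A peak below the gene, 31497 bp from it in KI and 31578 bp in WT, scored 158.82 in KI (percentile 73.1) and 128.27 in WT (percentile 65.9), with no KO peak within 28801 bp of it.

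**Figure D3:**
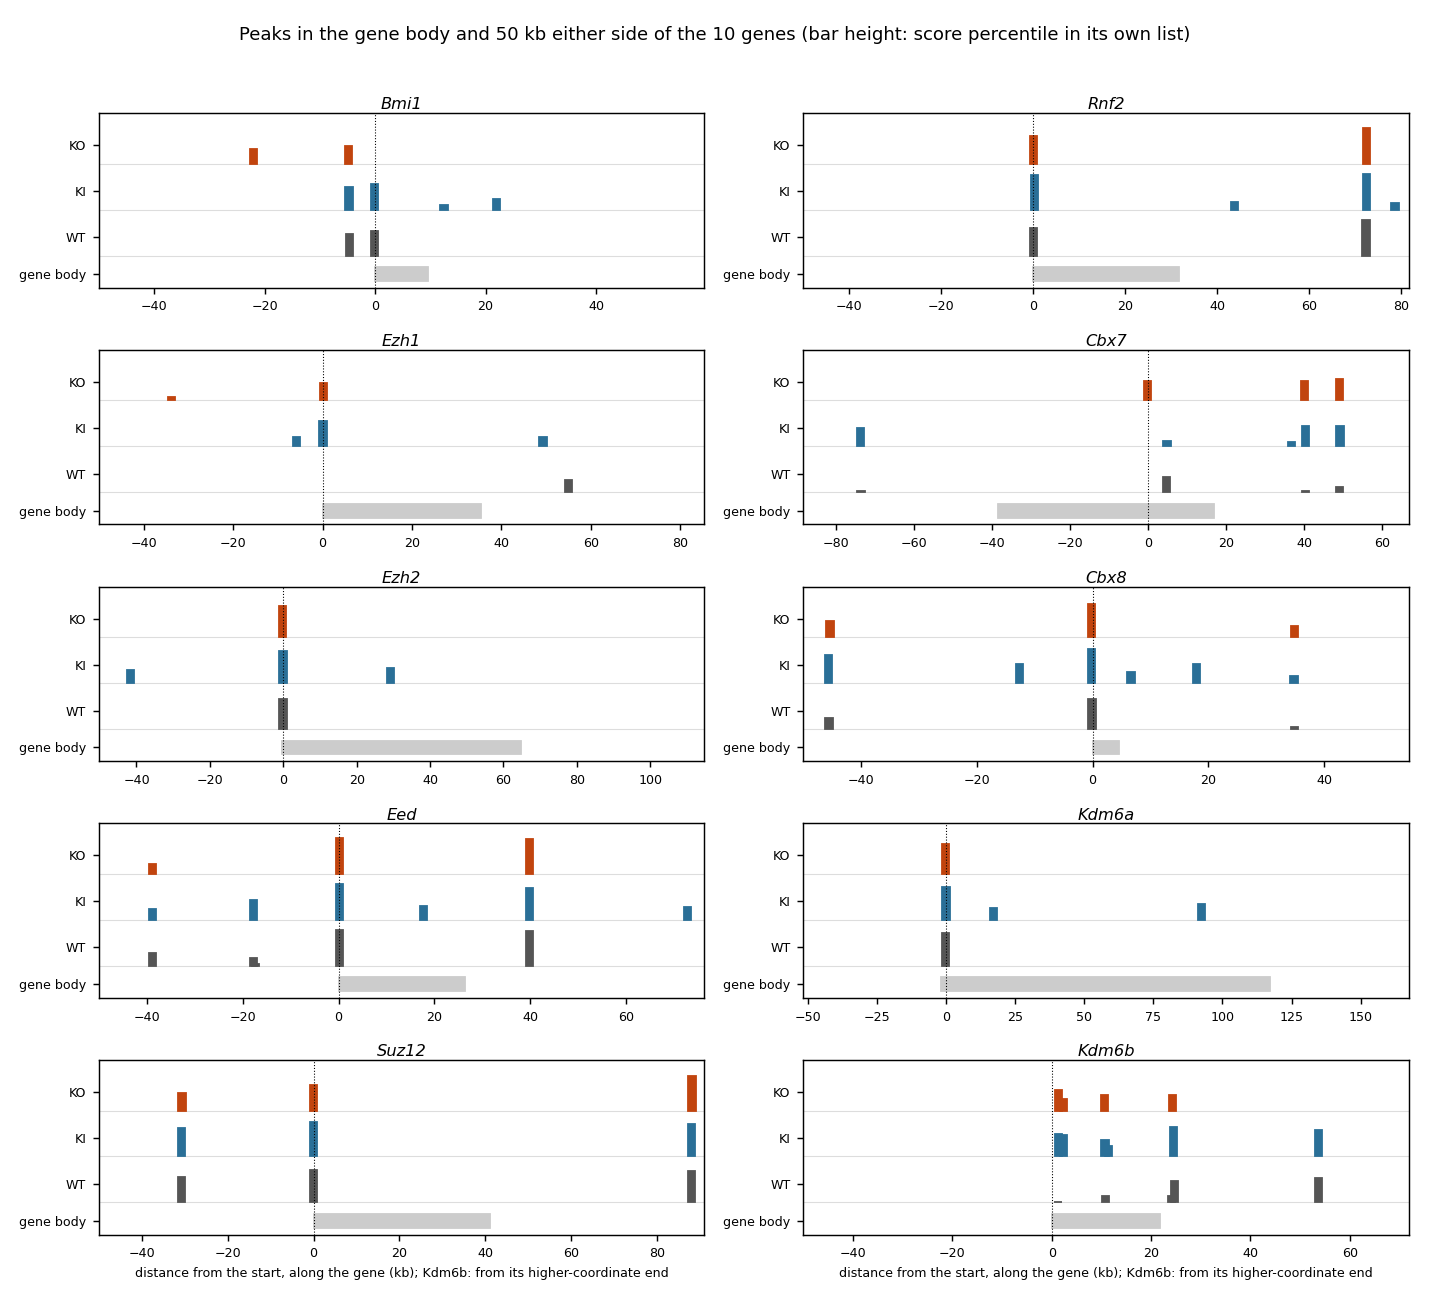
All window peaks of the 10 genes, with 1 panel per gene and KO above KI above WT in each. The horizontal axis is the distance from the start along the gene in kb (for Kdm6b, inward from its higher-coordinate end), bar height is the score percentile within the peak's own list, narrow peaks are widened to be visible, and the grey bar is the annotated gene body. Suz12 shows the same 3 peaks in every list, and KI has the most weak peaks, with 43 window peaks in all against 24 in KO and 27 in WT.

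The gene-end calls were set against those over all genes. The calls at Bmi1, Ezh1, Kdm6a and Kdm6b were known when the genes were chosen, so their counts are a description. KO against WT called 1 member lost, Bmi1, of the 6 with a WT gene-end peak, where 10.5% of all genes with one were called lost. It called 2 of the other 4 gained, Ezh1 and Kdm6a, where 8.21% of all genes without one were. KI against WT called 0 of the 6 lost, against 3.29% of all genes, and 3 of 4 gained, Ezh1, Kdm6a and Kdm6b, against 15.5%. KO against KI called Bmi1 and Kdm6b lost of 9 members with a KI gene-end peak, against 16.9% of all genes, and 0 gained, against 2.95%. Once gains whose peak overlapped a WT peak were taken out, 1 gain remained in KO and 1 in KI, both at Ezh1, where 7.96% and 15.0% of all genes without a WT gene-end peak had such a gain. Such overlapped gains made up 3.09% of all gene-end gains in KO and 3.16% in KI, while among the members they were 1 of 2 and 2 of 3. Of the losses of KO against KI, Bmi1 alone remained under the same check, against 16.2% of all genes with a KI gene-end peak, since the KI peak of Kdm6b overlapped a KO peak. The Bmi1 loss against WT had no overlapping KO peak, as held for 962 of the 1017 genes called lost in KO, or 9.94% of all genes with a WT gene-end peak. With the promoter-table start in place of gene ends, KO gained Ezh1 and Cbx7 and lost Bmi1 against WT, and KI gained Ezh1 and lost none. There 8.36% of all genes without a WT start peak were gained in KO and 15.6% in KI, and of those with one 9.79% were lost in KO and 2.72% in KI. KO against KI lost Bmi1 and gained Cbx7, where 15.6% of all genes with a KI start peak were lost and 2.62% of those without one gained.

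Strong peaks of the windows were shared, as were nearly all such peaks of the whole lists. In the top 25% of its list by score stood 8 of the KO, 12 of the KI and 9 of the WT window peaks, and every one of them overlapped a peak in both other lists. Over whole lists 99.0% of such KO peaks, 96.6% of KI peaks and 99.5% of WT peaks did. Window peaks absent from another list thus lay below the top 25%, and reached percentile 73.1 for a KI peak absent from KO. Of 24 KO window peaks 5 were absent from WT (20.8%, exact Clopper-Pearson 95% interval 7.13 to 42.2), and 32.4% of all KO peaks were. Of 43 KI window peaks 19 were absent from WT (44.2%, 29.1 to 60.1), against 46.5% of all. Of 27 WT window peaks 7 were absent from KO (25.9%, 11.1 to 46.3), against 25.5% of all, and 2 from KI (7.41%, 0.91 to 24.3), against 13.1%. Between the mutants, 3 of 24 KO window peaks were absent from KI (12.5%, 2.66 to 32.4) and 22 of 43 KI window peaks from KO (51.2%, 35.5 to 66.7), against 16.0% and 43.2% of all. At equal list size 27 KI window peaks were left, of which 22.2% were absent from WT and 29.6% from KO. With the full lists, each whole-list share lay inside the members' interval, which covers counting error over peaks only.

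**Figure D4:**
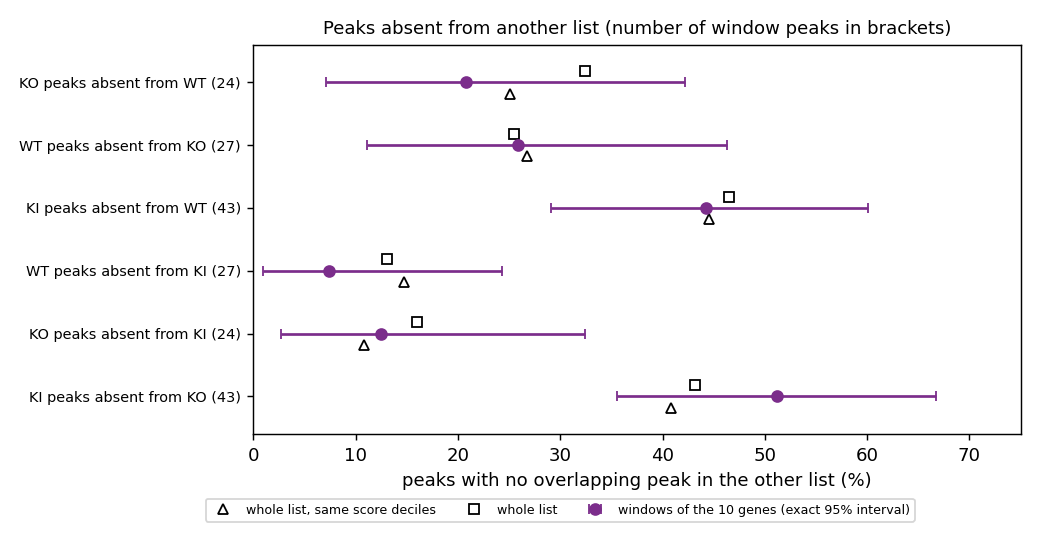
Share of window peaks of the 10 genes with no overlapping peak in another list, in percent (filled circles, with exact 95% intervals), beside the share over the whole list (squares) and over peaks of the same score deciles (triangles). The number of window peaks stands in brackets. Both whole-list marks lie within the interval in each of the 6 comparisons.

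Whole-list shares over peaks of the same score deciles also lay inside the members' intervals. They were 25.1% for KO peaks absent from WT, 44.5% for KI peaks absent from WT, 26.7% for WT peaks absent from KO and 14.7% for WT peaks absent from KI. Between the mutants they were 10.8% for KO peaks absent from KI, against 12.5% in the windows, and 40.8% for KI peaks absent from KO, against 51.2% in the windows. The KI window peaks absent from WT had a median score of 71.9 and a median width of 343 bp, and those present in WT 165 and 790 bp. The WT window peaks absent from KO had a median score of 75.1 and a median width of 534 bp, and those present in KO 123 and 725 bp. Of the KI window peaks, 17 at 9 of the genes were absent from both other lists, with scores of 57.13 to 95.15 and a median percentile of 30.5. The 9600 such peaks of the whole KI list had a median percentile of 24.0. The most strongly scored among the 17 was that at the end of Cbx2.

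Merging overlapping or touching peaks gave 48 regions in the windows. Peaks of all 3 lists stood in 19 (39.6%, 25.8 to 54.7), against 37.5% of 32764 regions genome-wide. KO and KI shared 2 regions without WT, at Ezh1 and Kdm6b (4.17%, against 10.7%). KI and WT shared 5 without KO (10.4%, against 7.71%), at Bmi1, Eed, Kdm6b and 2 at Cbx7. KO and WT shared 0 without KI, against 1.31%. KO alone had 3, at Bmi1, Ezh1 and Cbx7 (6.25%, against 7.99%), KI alone 17 (35.4%, against 29.3%) and WT alone 2, at Ezh1 and Eed (4.17%, against 5.52%). A member's window held a median of 2.5 KO, 4.0 KI and 2.5 WT peaks, against 2, 3 and 2 over all genes. Eed with 14 and Kdm6b with 15 peaks over the 3 lists were the most populated, and Ezh2 and Kdm6a with 5 each the least.

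The other genes of the pathway were taken from a list of 49. It was chosen with earlier results of these data known, so its counts and intervals are a description. The intervals cover counting error over genes only, with 1 library per genotype. Gene-end peaks were present in 33 of them in KO, 41 in KI and 35 in WT, and in all 3 lists for 30 genes. KO against WT called 5 of 35 lost (14.3%, 4.81 to 30.3, against 10.5% of all genes) and 3 of 14 gained (21.4%, 4.66 to 50.8, against 8.21%). KI against WT called 1 of 35 lost (2.86%, 0.0723 to 14.9, against 3.29%) and 7 of 14 gained (50%, 23.0 to 77.0, against 15.5%). KO against KI called 8 of 41 lost (19.5%, 8.82 to 34.9, against 16.9%) and 0 of 8 gained, against 2.95% of all genes. None of these calls overlapped a peak of the other list. At the promoter-table start, which 41 of the 49 genes have, the list gained 0 in KO and 1 in KI against WT. The shares over all genes without a WT start peak were 8.36% and 15.6%. The list lost 4 in KO and 1 in KI against WT, where 9.79% and 2.72% of all genes with a WT start peak were lost. Against WT, only genes with a WT start peak can be lost and only genes without one gained. The 41 genes are therefore not the base of either count. KO against KI lost 4, where 15.6% of all genes with a KI start peak were. Meis1 had a start peak in KI and WT and none in KO, and Kmt2d had one in KI alone. Both had gene-end peaks in all 3 lists.

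Among 22 PRC1 genes, Ring1, the paralogue of Rnf2, had a gene-end peak in KI (71.49) and WT (72.62) and none in KO. Kdm2b, which brings a PRC1 variant to CpG islands, had one in KI (91.77) and WT (96.7) and none in KO, although a peak lay at its promoter-table start in all 3 lists. Bcor, a subunit of that variant, had one in WT alone (61.3, percentile 18.4). Yaf2 had one in both mutants (79.6 in KO, 135.58 in KI) and not in WT, and Mga had one in KI alone (81.06) with a peak at its promoter-table start in all lists. Among 8 PRC2 accessory genes, Epop had one in KI alone (122.73). Usp7, a deubiquitinase, had one in KI alone near the lowest score (50.52), again with a start peak in all lists. Of the 6 genes that comprise partners of KDM6A and its Y homologue Uty, Ncoa6 had one in KI (152.87) and WT (72.07) and none in KO.

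Of 9 genes known as Polycomb targets, Cdkn2b, a cell cycle inhibitor, had a gene-end peak in KI (120.64) and WT (63.06) and none in KO. Cdkn1c, another such inhibitor, had one in both mutants (86.7 in KO, 80.81 in KI) that WT lacked. Lin28b, an RNA-binding protein of fetal HSC, had a weak one in KO (57.43) and KI (50.69), away from its promoter-table start. Hoxa9, Hoxa10, Igf2bp3 and Hmga2 had none in any list. Of the 12 genes of the list called at gene ends in any comparison, Kdm2b, Mga, Usp7, Ncoa6 and Lin28b had no such call at the promoter-table start. Epop, Cbx2, Yaf2 and Cdkn1c had no start in that table. Ring1, Bcor and Cdkn2b had the same pattern at their promoter-table starts as at their gene ends.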

How the data were processed

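Peaks of 3 ATAC-seq libraries, 1 per genotype, were analysed. Each deposited file was a list of 5 columns without a header, and the column 5 score is the authors' own value per peak. The peak names are those MACS writes, per the deposited files, and peaks were called per library. Start and end, the other deposited values used, gave width in bp. The build mm10 and CASAVA come from the submitters' processing notes. For the aligner, the MACS version, duplicates, read shift, any control and filtering, the entry is: not given in the sources used here. The depth in reads is unknown, and deeper sequencing alone can lengthen a list with weak peaks.

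Peaks overlapping a gene body or its 50 kb flanks were taken with Python 3.11.15, numpy 2.4.6 and pandas 2.3.3 (intervals with scipy 1.17.1, figures with matplotlib 3.10.9). A peak was absent from another list when no peak overlapped it by 1 bp. Gains and losses used peaks within 1 kb of either annotated end (RefSeq, GRCm38.p6) and then a check for overlap. The annotation used here gives no exons. The member windows shared no sequence with each other. Overlap and gene-end calls were tested on simulated lists. Peaks described in full were those at gene ends, in the top 25% by score, or the highest-scoring list-specific ones. Alternatives varied the overlap, window, gene-end distance, score minimum and list size. The members and lists were chosen with earlier results of these data known.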

Additional observations from a re-analysis of the deposited data

How the results depend on the processing

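No paired analysis was possible because each genotype has 1 ATAC-seq library, which also prevents leaving out a replicate. Of 159 values recomputed under the alternatives, 115 kept within 1.5 times of a count or within the interval of a share, and requiring 0.5 of the shorter peak to overlap or accepting a peak within 500 bp moved none. With peaks of score 100 or more, 9 KO, 21 KI and 14 WT window peaks were left, with 0% of KO peaks absent from WT or KI and 0% of WT peaks absent from KI. In that setting 35.7% of WT peaks were absent from KO, 33.3% of KI peaks from WT and 57.1% of KI peaks from KO. There members gained in KO against WT numbered 1 (0 without an overlapping WT peak), gains without an overlapping WT peak in KI 2, losses without an overlapping KO peak in KO against KI 3, and the wider list had 3 losses in KO, 0 losses in KI and 1 gain of KO against KI. At equal list size 27 KI window peaks were left, 22.2% absent from WT and 29.6% from KO, and the wider list had 4 losses in KI and 2 gains of KO against KI. Within 10 kb there were 13 KO, 22 KI and 13 WT peaks, within 100 kb 46, 75 and 42, and in gene bodies 11, 17 and 10, with 0% of WT peaks absent from KI within 10 kb and in gene bodies. With gene ends within 500 or 2500 bp, members gained 1 in KO and 1 in KI, and 1 was lost in KO against KI. The wider list lost 0 in KI within 500 bp. With the promoter-table start, which 41 of the 49 genes have, the wider list had 0 gains and 4 losses in KO against WT. It had 1 gain and 1 loss in KI against WT, and 4 losses of KO against KI. Members there gained 1 in KI, gained 2 in KO without an overlapping WT peak, and in KO against KI lost 1 and gained 1, with 1 gain free of overlap. The Bmi1 pattern was the same in each of these settings, and those of Ezh2, Eed, Suz12, Rnf2 and Cbx8 were too.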
